A study of Saccharomyces cerevisiae with 20 samples.

Results

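The nuclear genes of the yeast respiratory chain and ATP synthase were examined in 20 PAT-seq libraries of synchronised Saccharomyces cerevisiae. The group holds 32 genes, chosen by systematic name with earlier results of these data known, out of 6532 features counted. It comprises 5 genes of the F1 head and 6 of the stalk and membrane part of ATP synthase, 7 of cytochrome c oxidase (complex IV), 9 of the cytochrome bc1 complex (complex III), 4 of succinate dehydrogenase (complex II) and NDI1. PAT-seq sequences the 3' ends of polyadenylated RNA and so gives a read count per gene and a mean length of the poly(A) tail.

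The deletion strain is labelled delta_set1 and is called set1Δ below. It lacks SET1, the catalytic subunit of the COMPASS complex that methylates histone H3 on lysine 4, and its strain background is not stated in its own label. The other strain is W303a, of mating type a, called WT. Each strain contributed 10 libraries, namely one of an asynchronous culture in YPD (a rich glucose medium) and one each at 0 to 120 min, every 15 min, after release from a G1 arrest by the mating pheromone α-factor. All cultures of the release had been through the pheromone arrest, and the libraries of 0 min are taken as the arrested state. Each strain and time point is a single library, so the tests below measure the spread between time points of what may be 1 culture per strain, not the spread between independent cultures.

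In the mitochondrial inner membrane the respiratory chain carries electrons from NADH and succinate through ubiquinone, complex III, cytochrome c and complex IV to oxygen, and ATP synthase uses the resulting proton gradient to make ATP. S. cerevisiae has no proton-pumping complex I and uses the single-polypeptide enzyme Ndi1 in its place. Most subunits are nuclear genes whose proteins are imported, while a few core subunits are made inside the organelle. On glucose the cells mainly ferment, and many of these genes are held at partly repressed levels. The activators known to act on them are the HAP complex, built on Hap2, Hap3 and Hap5 with the activating subunit Hap4, which binds CCAAT boxes, and the haem-dependent factor Hap1, which binds repeats of CGG.

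The promoters carried the recognition letters of the HAP complex more often than those of other genes. In the 300 bases that end 100 bases before the start codon, CCAAT stood on either strand in 30 of 32 genes (93.8%), against 43.9% of 6001 nuclear protein-coding genes. The longer form ACCAATNA, which contains CCAAT, was found on either strand in 15 of 32 genes (46.9%), against 5.33% of all genes. It lay on the coding strand in 14 of these 15 genes, and it began between -351 (COR1) and -134 (ATP15), counted with -1 as the base before the start codon. The sites of 6 genes are aligned here, 5 of them with the lowest adjusted p of their complex (NDI1 stands alone) in the strain or arrest comparison and COX6 with the lowest p for tail length, with ACCAATNA in capitals, 10 flanking bases on each side, and each read 5′ to 3′ along its own motif (RefSeq assembly R64 of the reference strain S288C, which can differ from W303 in single bases).
ATP15 at chrXVI:29935-29962, plus strand: ttttatacgaACCAATGAaatttgatcc
ATP17 at chrIV:1228371-1228398, plus strand: tacggagagaACCAATCAtatcgaagga
COX6 at chrVIII:209478-209505, minus strand: ctttgaccggACCAATTAggtccctttt
COX8 at chrXII:910150-910177, minus strand: aacggtttgcACCAATCAtacgagagaa
SDH1 at chrXI:171430-171457, minus strand: gcgggggtggACCAATCAcagcgcagaa
NDI1 at chrXIII:30018-30045, minus strand: attcattcggACCAATCAtatgaaggca
The site began at -134 in ATP15, at -230 in ATP17, at -217 in COX6, at -202 in COX8, at -318 in SDH1 and at -228 in NDI1. COX7 had only the short form, in the opposite orientation to the gene, shown with CCAAT in capitals.
COX7 at chrXIII:779275-779299, plus strand, gene on the minus strand: cgcggcgtagCCAATcaagtactgc
ATP15, one of the genes whose level differed between the strains, had the short form a second time, as ATTGG on the coding strand. Its 300 bases of that window (chrXVI:29679-29978, plus strand) show both sites in capitals.
ATP15 upstream: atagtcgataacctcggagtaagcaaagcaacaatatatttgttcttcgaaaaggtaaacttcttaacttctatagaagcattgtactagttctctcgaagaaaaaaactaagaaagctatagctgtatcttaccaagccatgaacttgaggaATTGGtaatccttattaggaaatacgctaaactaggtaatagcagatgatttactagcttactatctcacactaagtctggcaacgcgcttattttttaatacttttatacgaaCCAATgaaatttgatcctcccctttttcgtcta
A letter match is a description of these windows and does not show binding. The known Hap1 pattern, a direct repeat of CGG with TA between the copies, searched on both strands, stood before QCR6 alone of the 32 genes (3.12%, against 0.217% of all genes), at 2 places on opposite strands. The more upstream of them is shown with the pattern in capitals.
QCR6 at chrVI:225038-225069, plus strand, gene on the minus strand: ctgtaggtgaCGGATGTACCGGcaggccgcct

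Reads assigned to genes numbered from 476565 (set1Δ at 30 min) to 2413354 (WT at 75 min) per library. SET1 itself was counted at 5.80 to 15.4 CPM (reads relative to the library's total) in set1Δ and at 30.3 to 65.9 CPM in WT, with no overlap. Reads at the gene remained in the deletion strain, and which part of the gene was removed is not stated in the sources used here. Genes specific to a cells (6 listed) summed to at least 478 CPM in every set1Δ library and 2406 CPM in every WT library, while genes specific to α cells (4 listed) summed to at most 76.1 CPM in set1Δ and 33.7 CPM in WT. By the edgeR strain test described below, 4 of the 6 a-specific genes were lower and none higher in set1Δ. With no filter on low counts, MF(ALPHA)1 (2.56 on the log2 scale, adjusted p = 0.0084) and MF(ALPHA)2 (2.50, adjusted p = 0.00051) were higher in set1Δ. STE3 was not called (1.48, adjusted p = 0.11). Reads that ended in a poly(A) tail made up 52.4% to 76.3% of the total in set1Δ and 32.2% to 91.7% in WT. The WT library of 120 min stood apart with that lowest share and a TMM scaling factor of 0.628, against 0.804 to 1.23 for the other WT libraries, and results that turn on it are given below also without the libraries of 120 min, or of 105 and 120 min, of both strains. The 32 genes took 0.641% to 0.844% of all reads in set1Δ and 0.402% (120 min) to 0.937% in WT.

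Of the 32 genes, 28 reached a mean of 10 reads per library and were tested, among 5060 features in all. COX4, QCR9, RIP1 and SDH2 fell below this mean. Levels are given as CPM after TMM scaling, as mean ± SD over the 10 libraries of a strain, which include the asynchronous culture. Since PAT-seq reads come from the 3' end, no length correction was applied and levels of different genes were not ranked against each other.

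Among the genes of the F1 head, the catalytic unit of ATP synthase, ATP1 (YBL099W), the α subunit, averaged 1121 ± 216 CPM in set1Δ and 1157 ± 364 CPM in WT. ATP2 (YJR121W), the catalytic β subunit, averaged 200.1 ± 56.1 CPM in set1Δ and 149.7 ± 31.0 CPM in WT. ATP3 (YBR039W), the γ subunit of the rotating shaft, averaged 197 ± 35.5 CPM in set1Δ and 199.97 ± 46.7 CPM in WT. In these 3 genes the means of the strains differed by less than the larger of their SDs. The SDs include change over time, and at matched time points ATP2 was higher in set1Δ at 8 of 10. ATP15 (YPL271W), the ε subunit of the central stalk, averaged 394 ± 61.5 CPM in set1Δ and 503 ± 43.7 CPM in WT. ATP16 (YDL004W), the δ subunit beside it, averaged 66.6 ± 14.1 CPM in set1Δ and 49.0 ± 11.1 CPM in WT. These neighbouring subunits stood on opposite sides, ATP15 with a lower and ATP16 with a higher mean in set1Δ.

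In the peripheral stalk, which holds the head still, ATP4 (YPL078C, subunit b) averaged 244 ± 38.4 CPM in set1Δ and 250.1 ± 28.8 CPM in WT. ATP5 (YDR298C, the subunit that confers oligomycin sensitivity) averaged 260.0 ± 34.8 CPM in set1Δ and 237 ± 59.2 CPM in WT. ATP7 (YKL016C, subunit d) averaged 228 ± 33.6 CPM in set1Δ and 251 ± 55.1 CPM in WT. These values overlapped widely between strains. ATP14 (YLR295C, subunit h) was counted in one feature with the overlapping open reading frame YLR294C, and that feature averaged 529 ± 65.5 CPM in set1Δ and 569.8 ± 158 CPM in WT. Reads of the pair cannot be separated. In the membrane part, ATP17 (YDR377W, subunit f) averaged 26.8 ± 6.59 CPM in set1Δ and 33.0 ± 10.0 CPM in WT. ATP20 (YPR020W, subunit g, which helps to pair the complexes) averaged 107 ± 22.8 CPM in set1Δ and 113 ± 26.7 CPM in WT.

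Complex IV, the terminal oxidase, has its catalytic subunits made in the organelle, while the listed ones are encoded by nuclear genes. COX4 (YGL187C), a zinc-binding subunit, had only 3 to 12 reads per set1Δ library and 4 to 16 reads per WT library. COX6 (YHR051W, subunit VI) averaged 32.4 ± 7.63 CPM in set1Δ and 45.7 ± 17.1 CPM in WT. COX7 (YMR256C, subunit VII) averaged 192 ± 32.5 CPM in set1Δ and 287 ± 76.7 CPM in WT. The means of COX6 and COX7 were both lower in set1Δ. COX8 (YLR395C, subunit VIII) averaged 25.2 ± 4.94 CPM in set1Δ and 30.1 ± 9.39 CPM in WT. COX9 (YDL067C, subunit VIIa) averaged 100.6 ± 11.7 CPM in set1Δ and 116 ± 16.2 CPM in WT. COX12 (YLR038C, subunit VIb) went the other way and averaged 74.2 ± 16.6 CPM in set1Δ and 55.6 ± 15.2 CPM in WT. COX13 (YGL191W, subunit VIa) averaged 384 ± 86.7 CPM in set1Δ and 382 ± 90.9 CPM in WT, with nearly equal means.

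In complex III the core proteins do not carry electrons. COR1 (YBL045C) averaged 77.7 ± 22.2 CPM in set1Δ and 59.5 ± 15.6 CPM in WT. QCR2 (YPR191W), its partner, averaged 228 ± 42.0 CPM in set1Δ and 259 ± 83.9 CPM in WT. The means of this pair differed in opposite directions. Of the small subunits, QCR6 (YFR033C, the acidic hinge protein) averaged 422 ± 86.3 CPM in set1Δ and 492 ± 147 CPM in WT. QCR7 (YDR529C) averaged 903 ± 193 CPM in set1Δ and 996 ± 330.3 CPM in WT. QCR8 (YJL166W) averaged 165 ± 29.6 CPM in set1Δ and 170.4 ± 54.5 CPM in WT. Means of these 3 accessory subunits differed by less than the larger of their SDs. QCR10 (YHR001W-A), a small accessory subunit, averaged 150.2 ± 55.9 CPM in set1Δ and 216 ± 96.9 CPM in WT. QCR9 (YGR183C) averaged 5.61 ± 4.83 CPM in set1Δ and 8.07 ± 6.86 CPM in WT. Its counts were 4 to 31 reads per set1Δ library and 5 to 32 reads per WT library, with both maxima at 15 min. Of the electron carriers, CYT1 (YOR065W, cytochrome c1) averaged 33.7 ± 12.3 CPM in set1Δ and 25.6 ± 8.18 CPM in WT. Most reads of CYT1, like those of QCR7, carried no poly(A) tail, with the shares given below. RIP1 (YEL024W, the Rieske iron-sulfur protein) had 0 to 13 reads per set1Δ library and 0 to 4 reads per WT library, too few for a level.

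In complex II, which links the citric acid cycle to the chain, SDH1 (YKL148C, the flavoprotein) averaged 40.2 ± 13.0 CPM in set1Δ and 32.3 ± 11.9 CPM in WT. SDH2 (YLL041C, the iron-sulfur protein) had 2 to 24 reads per set1Δ library and 1 to 13 reads per WT library. SDH3 (YKL141W), a membrane anchor, averaged 739 ± 163 CPM in set1Δ and 865 ± 251 CPM in WT. SDH4 (YDR178W), the other anchor, averaged 46.2 ± 8.48 CPM in set1Δ and 47.5 ± 15.6 CPM in WT, with nearly equal means. NDI1 (YML120C), the internal NADH dehydrogenase, averaged 13.0 ± 7.02 CPM in set1Δ and 9.12 ± 2.85 CPM in WT, from 2 to 42 reads per library.

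**Figure D1:**
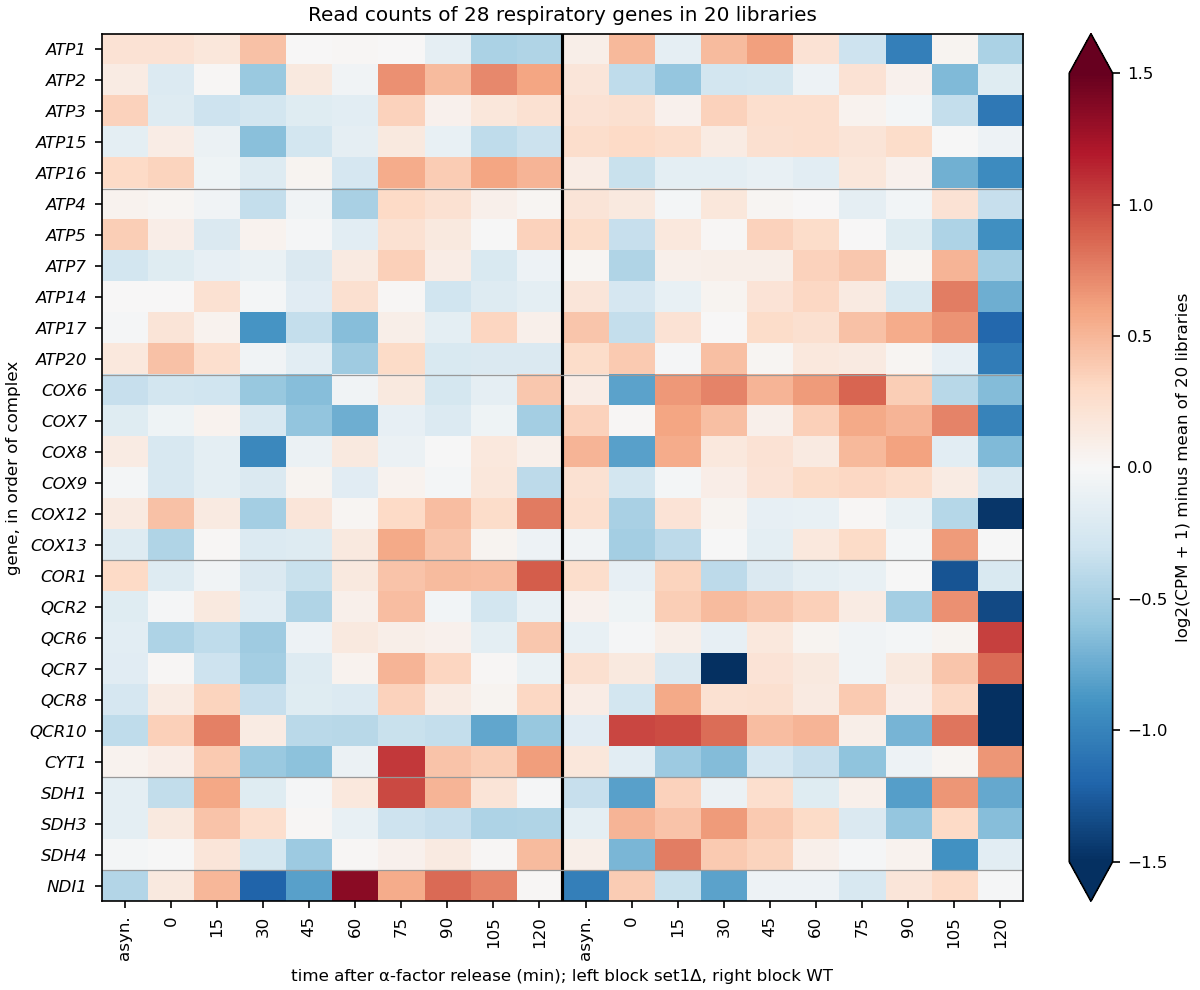
Each row is one of the 28 genes tested and each column one library, with set1Δ in the left block and WT in the right block, and colour gives log2(CPM + 1) minus the gene's mean over 20 libraries. The last column, WT at 120 min, holds the lowest WT values of COX12 (21.9 CPM), QCR8 (36.1 CPM) and QCR10 (46.0 CPM) and the highest of QCR6 (904 CPM) and CYT1 (44.9 CPM).

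The comparison of the strains asks whether loss of SET1 altered these genes along the time course. ATP15 and COX7 were lower in set1Δ, and no gene of the group was higher at an adjusted p below 0.05. The test was edgeR's quasi-likelihood test with time point as a factor and Benjamini-Hochberg adjustment over 5060 features. It called 10.5% of all features lower and 8.44% higher in set1Δ, against 2 lower and 0 higher of 28 here, so the group's counts were at or below the background share. At an unadjusted p below 0.05 there were 4 lower and 4 higher of 28, against 916 lower and 795 higher of 5060 features. DESeq2 called 2 higher, ATP2 and ATP16, a count not set against the share of all features called higher by DESeq2. The median log2 difference of the 28 genes was -0.06, against -0.01 over all features, with 10 positive and 18 negative. With no filter on low counts SDH2 was also called, higher in set1Δ (1.25 on the log2 scale, SE 0.31, adjusted p = 0.0076), on the few reads given above. In these bulk cultures, fewer cells making an RNA and less RNA per cell cannot be told apart.

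ATP15 had a lowest, median and highest value of 285, 399.99 and 488 CPM in set1Δ, against 418, 525.6 and 546 CPM in WT. It was lower in set1Δ at 10 of 10 time points, although the ranges overlapped. The log2 difference was -0.37 (SE 0.10, adjusted p = 0.017). The call was lost without the pair of 45 min libraries (log2 difference -0.34, adjusted p = 0.051). COX7 had a lowest, median and highest value of 138, 199.7 and 236 CPM in set1Δ, against 114, 302 and 383 CPM in WT. It was lower in set1Δ at 9 of 10 time points, with the exception of 120 min (160 CPM in set1Δ, 114 CPM in WT). The log2 difference was -0.54 (SE 0.13, adjusted p = 0.0091), and COX7 kept its call in each alternative run.

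The other genes chosen for single-library values did not pass. ATP17 had a lowest, median and highest value of 15.0, 28.9 and 35.8 CPM in set1Δ, against 12.0, 34.2 and 46.0 CPM in WT. The log2 difference was -0.31 (SE 0.18, adjusted p = 0.23). QCR10 had a lowest, median and highest value of 94.8, 127 and 277 CPM in set1Δ, against 46.0, 229.8 and 329 CPM in WT. The ranges of ATP17 and QCR10 overlapped, with both the lowest and the highest values in WT. For QCR10 the difference was -0.43 on the log2 scale, SE 0.20, adjusted p = 0.14. Both genes were lower in set1Δ at 8 of 10 time points, the exceptions including 120 min. Without the libraries of 120 min the difference passed for ATP17 (-0.44, adjusted p = 0.029) and for QCR10 (-0.58, adjusted p = 0.0083), and COX6 was also called, so that 5 genes were then lower. That count was not set against the share of all features called lower in the same fit. SDH1 had a lowest, median and highest value of 26.2, 36.1 and 69.1 CPM in set1Δ, against 19.0, 31.2 and 54.7 CPM in WT. The log2 difference was 0.34 (SE 0.17, adjusted p = 0.16). NDI1 had a lowest, median and highest value of 3.75, 12.8 and 26.9 CPM in set1Δ, against 4.40, 9.38 and 13.2 CPM in WT. For SDH1 and NDI1 the highest value was in set1Δ. For NDI1 the difference was 0.50 on the log2 scale, SE 0.22, adjusted p = 0.12. SDH1 and NDI1 were each higher in set1Δ at 7 of 10 time points, with overlapping ranges.

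By complex and by edgeR, the F1 head had 1 of 5 genes lower, the stalk and membrane part 0 of 6 and complex IV 1 of 6 tested. Complex III (7 tested), complex II (3 tested) and NDI1 had none. At an unadjusted p below 0.05, the F1 head had 3 genes (2 higher, 1 lower) and complex IV had 3 (1 higher, 2 lower). Complex III had 1 lower, and NDI1 was itself higher. The stalk and membrane part and complex II had none, against 1711 of 5060 features. Median log2 differences were -0.0015 for the F1 head, -0.07 for the stalk and membrane part, -0.22 for complex IV, -0.08 for complex III and -0.02 for complex II. SEs of single genes ranged from 0.096 to 0.22. No complex moved as a whole past the test, and ATP synthase and complexes II, III and IV each held genes of both signs.

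**Figure D2:**
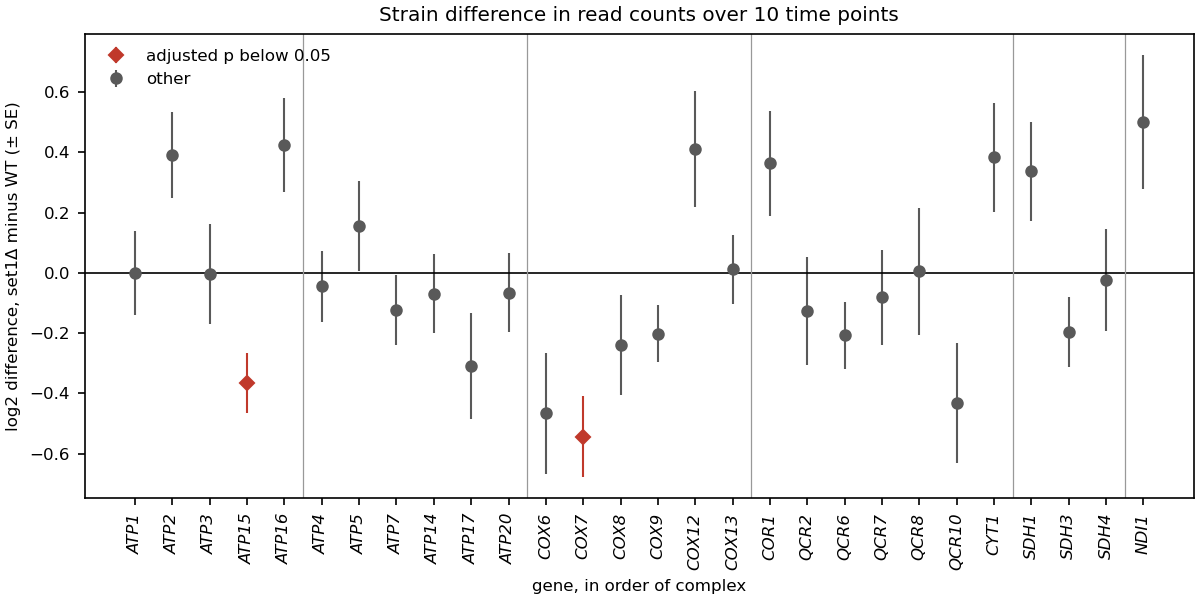
Points give the log2 difference in read counts, set1Δ minus WT over 10 time points, with bars of 1 SE, for 28 genes in order of complex. The diamonds, ATP15 at -0.37 and COX7 at -0.54, are the genes with an adjusted p below 0.05, and the others lie between -0.47 and 0.50.

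The strain difference was also set beside the ACCAATNA site. The median was -0.06 over 14 tested genes with the site and -0.04 over 14 tested genes without it, with 5 positive in each set. The shorter genes of the group tended to the negative side. The Spearman correlation of annotated gene length and log2 strain difference was 0.57 across 28 genes, which share libraries and are not independent, and 0.26 across 4886 features with a length. Among genes under 500 bases the median was -0.20 for the 15 members and -0.17 for 533 features in all, with 4 of 15 and 160 of 533 positive. At 500 bases or more it was -0.0015 for 13 members and 0.0044 for 4353 features. The correlation over the 28 genes differed between time points, from -0.15 at 0 min to 0.71 at 75 min.

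The comparison of 0 min with the asynchronous cultures asks what the pheromone arrest did to these genes. None of 28 genes was called by edgeR, fitted with strain on 4 libraries. An unadjusted p below 0.05 was found for 1 of them, against 651 of 5060 features. DESeq2 also called none. The fit called 3.87% of all features. It has 1 residual degree of freedom among libraries, and SEs of the 28 genes were 0.28 to 0.52 on the log2 scale, so that even the change of QCR10, close to 2-fold, did not pass. The median change of the 28 genes was -0.14, against -0.02 over all features.

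Set apart by strain, the median change of the 28 genes was 0.04 in set1Δ and -0.38 in WT, against -0.0086 in set1Δ and -0.07 in WT over all features tested, from 1 library pair per strain and so with no test. In set1Δ 17 genes had a positive and 11 a negative change, and in WT 8 had a positive and 20 a negative change. Over all features tested, 2492 were positive and 2568 negative in set1Δ, and 2339 positive and 2721 negative in WT. Signs were opposite in 13 of the 28 genes, of which 11 were positive in set1Δ and negative in WT, counts not taken over all features. No gene changed 2-fold in set1Δ, and in WT 2 (QCR10 and NDI1) were at least 2-fold higher at 0 min and 1 (COX8) at least 2-fold lower. Of all features, 2.81% were at least 2-fold higher and 4.19% at least 2-fold lower in set1Δ, and 9.58% higher and 10% lower in WT, so the counts of the group were at or below the background share. The poly(A) share was 76.3% at 0 min and 73.7% asynchronous in set1Δ, and 70.5% at 0 min and 73.9% asynchronous in WT, and its part in the result was not tested.

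QCR10 had 211 CPM at 0 min and 126 CPM asynchronous in set1Δ, and 329 CPM at 0 min and 146 CPM asynchronous in WT. The values at 0 min were the higher ones in both strains. The joint change was 0.99 on the log2 scale (SE 0.28, adjusted p = 0.081), the lowest adjusted p of the group. NDI1 had 11.2 CPM at 0 min and 7.04 CPM asynchronous in set1Δ, and 13.2 CPM at 0 min and 4.40 CPM asynchronous in WT. These too were higher at 0 min in both strains. The joint change was 1.07 on the log2 scale (SE 0.52, adjusted p = 0.43), from 9 to 17 reads in each of the 4 libraries. SDH3 had 859.9 CPM at 0 min and 699.5 CPM asynchronous in set1Δ, and 1106 CPM at 0 min and 698 CPM asynchronous in WT. The joint change was 0.51 on the log2 scale (SE 0.33, adjusted p = 0.59). SDH3 was again higher at 0 min in both, by less in set1Δ. COX8 had 22.3 CPM at 0 min and 29.1 CPM asynchronous in set1Δ, and 14.7 CPM at 0 min and 38.2 CPM asynchronous in WT. Both strains had the lower value at 0 min. The joint change was -0.76 on the log2 scale (SE 0.36, adjusted p = 0.41). ATP2 had 146 CPM at 0 min and 184 CPM asynchronous in set1Δ, and 129 CPM at 0 min and 191 CPM asynchronous in WT. The joint change was -0.42 on the log2 scale (SE 0.28, adjusted p = 0.61). ATP5 had 261 CPM at 0 min and 313 CPM asynchronous in set1Δ, and 191 CPM at 0 min and 295 CPM asynchronous in WT. The joint change was -0.41 on the log2 scale (SE 0.28, adjusted p = 0.62). COX8, ATP2 and ATP5 had lower values at 0 min in both strains, more so in WT. All 6 tested genes of complex IV had a negative joint estimate, from -0.76 to -0.07 with a median of -0.33, and none of them passed. Complex III had 4 positive and 3 negative estimates, and 2607 of 5060 features were negative.

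**Figure D3:**
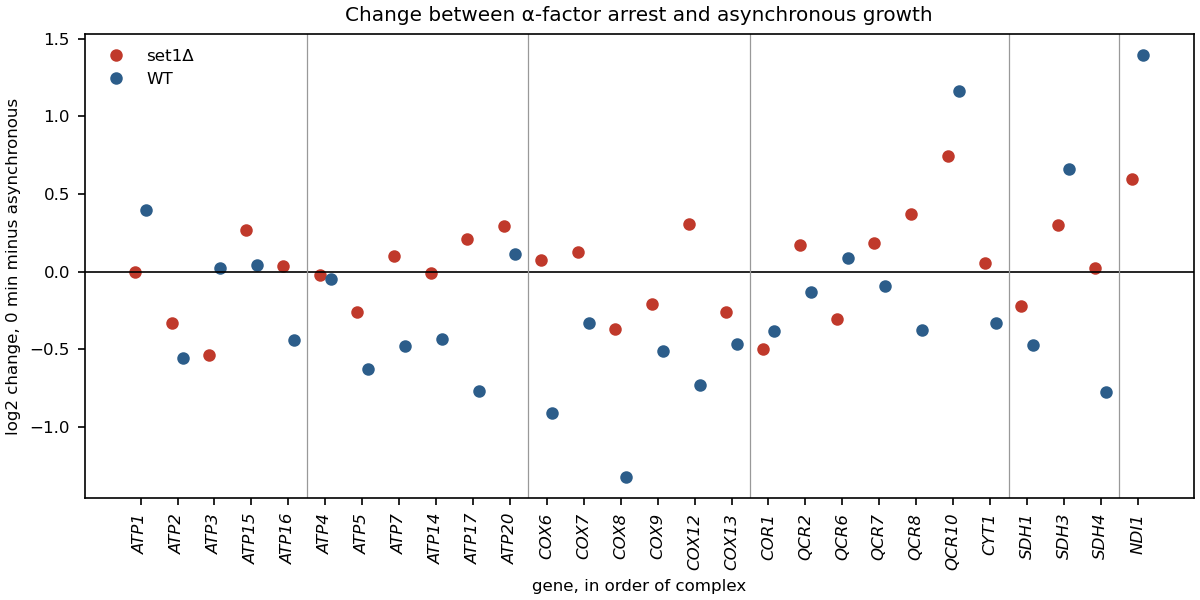
Points give the log2 change between 0 min in α-factor and the asynchronous culture for each of 28 genes, set1Δ in red left of WT in blue, from one library pair per strain. The points of set1Δ lie between -0.54 and 0.74 and those of WT between -1.32 and 1.40.

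Along the release, 10 of 28 genes changed with time by a spline fit of 18 libraries (edgeR, adjusted p below 0.05), against 39.6% of all features. They were ATP1 and ATP3 of the F1 head, COX6, COX7, COX12 and COX13 of complex IV, QCR6, QCR8 and CYT1 of complex III, and SDH3. Adjusted p was lowest in COX6 (0.0029) and QCR6 (0.0048). Ranges between the lowest and highest time point were 0.53 to 2.55 on the log2 scale in set1Δ and 0.38 to 2.81 in WT, and the range was wider in WT in 23 of 28 genes, as it was in 3500 of 5060 features (69.2%). Without the libraries of 105 and 120 min, 5 genes were called (ATP1, COX13, QCR2, QCR10 and SDH3), of which ATP1, COX13 and SDH3 are among the 10. That count was not set against the share of all features called in the same fit. With tailed reads alone, 3 of 26 genes tested were called (ATP1, COX6 and QCR6), and SDH3 was not (adjusted p = 0.11). A spline of 4 degrees of freedom called ATP3, ATP5, COX6, COX12, QCR6, QCR7 and SDH3. ATP1, COX7, COX13, QCR8 and CYT1 then lost their calls. None of the 10 genes kept its call in each alternative run.

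SDH3 and ATP1 were highest early and lowest late in the release, without a steady decline in WT. There, from 90 to 105 min, SDH3 rose from 519 to 954 CPM and ATP1 from 542 to 1134 CPM. SDH3 was highest at 15 min in set1Δ (1046 CPM) and at 30 min in WT (1209 CPM), and lowest at 105 min in set1Δ (560.1 CPM) and at 120 min in WT (498 CPM). ATP1 was highest at 30 min in set1Δ (1489 CPM) and at 45 min in WT (1691 CPM), and lowest at 105 min in set1Δ (793 CPM) and at 90 min in WT (542 CPM), though it was not called with a spline of 4 degrees of freedom (adjusted p = 0.099). QCR9, with too few reads for that fit, had its highest value at 15 min in both strains, 17.99 CPM in set1Δ and 27.4 CPM in WT, where the other libraries held 2.201 to 9.39 CPM in set1Δ and 3.79 to 7.34 CPM in WT. With no filter on low counts its change with time had an adjusted p of 0.022.

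The time profile differed between strains in 4 of 28 genes, ATP3, COX6, COX12 and QCR8, against 12.4% of all features. ATP3 was lowest at 15 min in set1Δ (156 CPM) and at 120 min in WT (91.9 CPM), with an adjusted p of 0.0082. COX6 ranged from 23.3 CPM at 45 min to 48.8 CPM at 120 min in set1Δ, and from 20.5 CPM at 0 min to 68.0 CPM at 75 min in WT, with an adjusted p of 0.0086. COX12 reached its maximum of 107 CPM in set1Δ and its minimum of 21.9 CPM in WT at the same time, 120 min (adjusted p = 0.018). QCR8 at 120 min had 199 CPM in set1Δ and 36.1 CPM in WT (adjusted p = 0.017). Without the libraries of 105 and 120 min, and likewise with reads carrying a poly(A) tail, 0 of these calls remained, so the calls depended on those settings. The poly(A) share was 66.8% at 120 min in set1Δ and 32.2% at 120 min in WT.

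**Figure D4:**
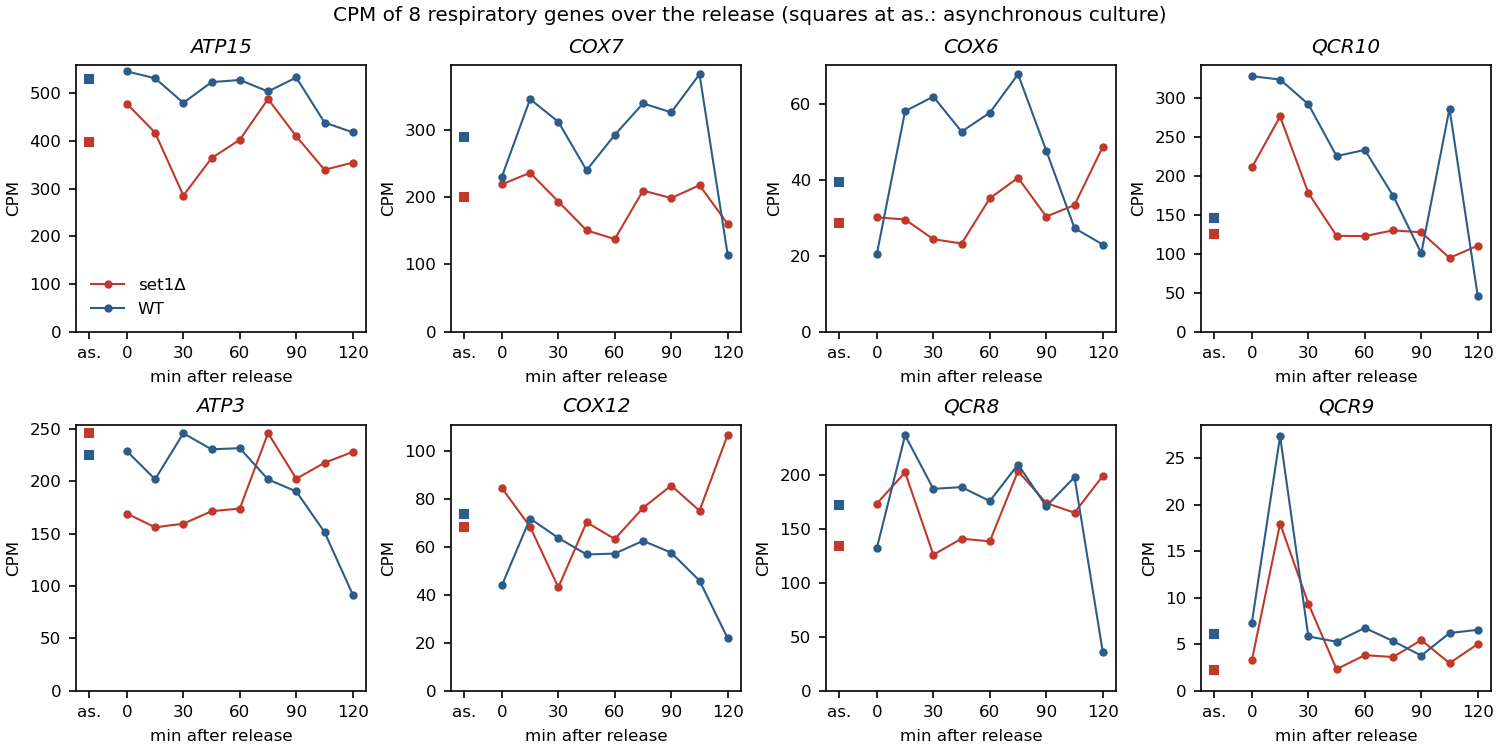
CPM of 8 genes against minutes after release, set1Δ in red and WT in blue, with the asynchronous culture as a square at the left. WT values of ATP3, COX12 and QCR8 end low at 120 min (91.9, 21.9 and 36.1 CPM), and QCR9 peaks at 15 min in both strains.

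Tail lengths were used where at least 10 tailed reads supported them, which left 26 genes for the strain test by limma. No gene of the group was called, and 4 had an unadjusted p below 0.05. Over all 4281 features, 4 (0.0934%) were called and 567 had an unadjusted p below 0.05. Tails were shorter in set1Δ in 23 of the 26 genes, and in 2821 of 4281 features (65.9%). The median difference was -0.92 nucleotides (nt) for the 26 genes, against -0.66 nt over all features. After each library was centred on its own median, the medians were -0.32 nt for the 26 genes and -0.03 nt for all features.

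COX6 had the lowest p. The lowest, median and highest mean tail was 28.6, 34.4 and 36.5 nt in set1Δ, against 29.6, 43.0 and 48.3 nt in WT. It was shorter in set1Δ at 10 of 10 time points, and the ranges overlapped. The difference was -8.14 nt (SE 1.498, adjusted p = 0.061), on 13 to 65 tailed reads per set1Δ library and 14 to 157 per WT library. It was called when the libraries of 0 min were left out and when values were weighted by tailed reads. SDH4 differed by -3.84 nt (adjusted p = 0.34) and ATP3 by -2.94 nt (adjusted p = 0.35), neither past the test.

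Between genes, tails differed more than between strains. QCR6 had 14.7 to 16.2 nt in set1Δ and 13.2 to 17.4 nt in WT, on 143 or more tailed reads per library. Its mean over 20 libraries, 15.6 nt, was longer than that of only 0.888% of 3153 features with a value in every library. CYT1, with a value in 3 set1Δ and 2 WT libraries, had 11.1 to 13.4 nt in set1Δ and 12.1 to 15.5 nt in WT. At the other end, COX6 with a mean of 37.7 nt exceeded 97.0% of these features, and SDH3 (33.4 nt) and QCR10 (33.4 nt) exceeded 84.4% and 84.3%. Of 24 genes with a value in every library, 19 lay below the median of all features, and the median over the group was below that over all features in 10 of 10 set1Δ and 10 of 10 WT libraries. The share of a gene's reads that carried a tail also varied, from 13.2% (set1Δ) and 14.6% (WT) for QCR7 and 17.5% (set1Δ) and 17.2% (WT) for CYT1 to 96.7% (set1Δ) and 97.6% (WT) for SDH3.

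The RNA-binding protein Puf3 is known to bind TGTANATA in the mRNAs of mitochondrial proteins. These letters stood on the coding strand within 250 bases after the stop codon in 5 of 32 genes (ATP1, ATP14, COX8, SDH1 and SDH2), a share of 15.6%, against 15.2% of all genes, so the group did not stand out. Neither COX6 nor QCR6, at the ends of the tail range, held them there. In the step from asynchronous growth to 0 min, 0 of 26 tested genes changed tail length by limma (0 of 3974 features, 0%). At an unadjusted p below 0.05 there was 1 of them, against 300 of all features. The median change was -1.11 nt for the 26 genes and -1.15 nt for all features, and with SEs of 1.05 to 2.37 nt in single genes this fit of 4 libraries could not detect changes of a few nt.

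**Figure D5:**
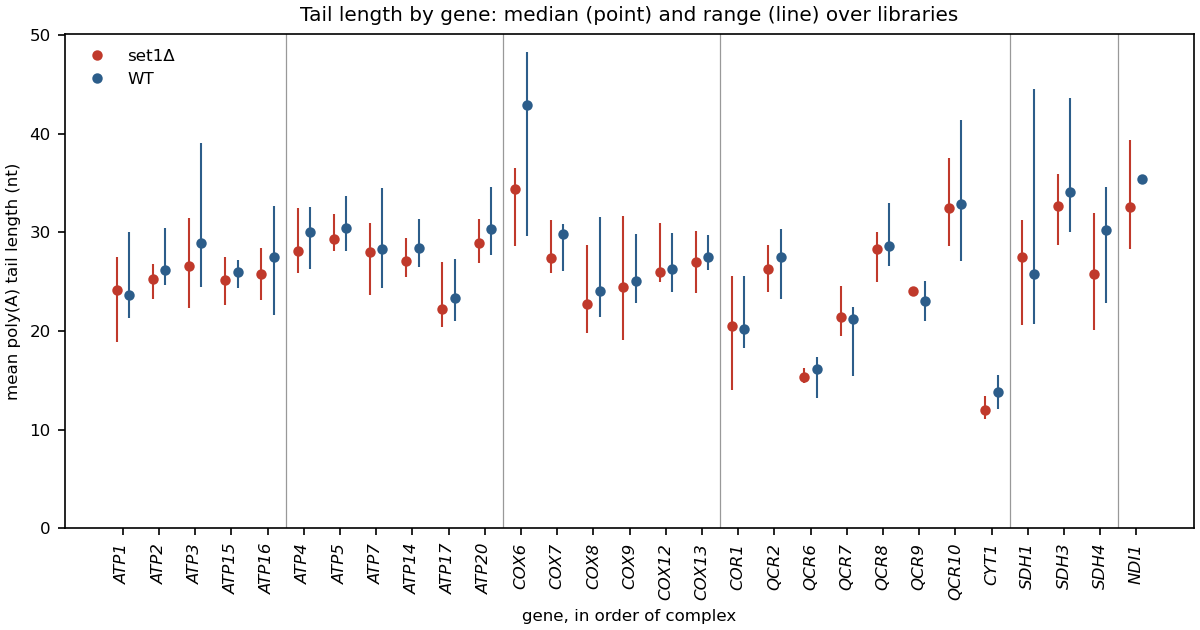
Points give the median and lines the range of the mean tail length in nt over libraries with at least 10 tailed reads, set1Δ in red left of WT in blue, for 29 genes. QCR6 and CYT1 lie lowest, and COX6 in WT has the highest median, 43.0 nt, against 34.4 nt in set1Δ.

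The rest of the pathway was read from lists drawn up with earlier results of these data known. Among 12 tested genes of other subunits and electron carriers, 1 was higher and 4 lower in set1Δ by edgeR, against 8.44% higher and 10.5% lower of all features. The higher one was CYC7, the minor isoform of cytochrome c (1.69 on the log2 scale, SE 0.31, adjusted p = 0.001), with 5.81 to 29.0 CPM in set1Δ and 0 to 8.35 CPM in WT. The lower ones were ATP19, a small ATP synthase subunit (-0.61 on the log2 scale, SE 0.12, adjusted p = 0.0028), STF1 (-0.58 on the log2 scale, SE 0.17, adjusted p = 0.024) and INH1 (-0.42 on the log2 scale, SE 0.13, adjusted p = 0.026), which encode inhibitors of its ATPase activity, and NDE1, an external NADH dehydrogenase (-0.36 on the log2 scale, SE 0.11, adjusted p = 0.025). CYC1, the major cytochrome c, had the lowest arrest p of that list (log2 change -1.15, SE 0.33, adjusted p = 0.083), followed by STF1 (1.26, adjusted p = 0.11) and STF2 (1.11, adjusted p = 0.36). None of them passed. The strain calls of STF1, INH1 and NDE1 were each lost in some of the fits that left out one time point. Of the succinate dehydrogenase paralogs only TIM18 was tested, with a strain difference of -0.27 (adjusted p = 0.16) and an arrest change of -0.33 (adjusted p = 0.75).

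The citric acid cycle, which feeds the chain, had 4 of 12 tested genes higher in set1Δ and none lower by edgeR, against 8.44% higher and 10.5% lower of all features. All 12 estimates were positive, with a median of 0.19, while 2453 of 5060 features had a positive estimate. ACO1, aconitase, averaged 402 ± 76.7 CPM in set1Δ and 224 ± 46.4 CPM in WT, a difference of 0.84 on the log2 scale, SE 0.16, adjusted p = 0.0016. The other called genes were KGD1 and KGD2, subunits of 2-oxoglutarate dehydrogenase, and LSC1, of succinyl-CoA ligase, at 0.58 (adjusted p = 0.028), 0.38 (adjusted p = 0.036) and 0.42 (adjusted p = 0.033). These 3 calls were lost in some of the fits that left out one time point, while ACO1 kept its call in each alternative run. In the arrest step none was called, with MDH1 at -0.92 (adjusted p = 0.13), CIT1 at 0.71 (adjusted p = 0.28) and FUM1 at 0.60 (adjusted p = 0.39) the lowest.

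Among 31 tested assembly factors, 4 were higher and none lower in set1Δ by edgeR, against the same 8.44% and 10.5% of all features, a share of higher genes not far from the background. They were COX15 in haem a synthesis (0.60 on the log2 scale, SE 0.14, adjusted p = 0.0083), the copper protein gene SCO2 (0.46 on the log2 scale, SE 0.12, adjusted p = 0.015), BCS1 (0.35 on the log2 scale, SE 0.11, adjusted p = 0.03), which inserts the Rieske protein, and PET117 (0.62 on the log2 scale, SE 0.19, adjusted p = 0.031). The calls of BCS1 and PET117 were lost in some of the fits that left out one time point, and that of SCO2 with no term for time (adjusted p = 0.052). Signs were mixed over the list, with 12 positive and 19 negative. CYC3 (2.01, adjusted p = 0.16), SDH6 (1.06, adjusted p = 0.24) and SCO2 (0.74, adjusted p = 0.27) had the lowest arrest p. Of 12 translation and mRNA factors of mitochondrial genes, MSS51, needed for COX1 translation, was higher (0.55 on the log2 scale, SE 0.14, adjusted p = 0.0096), while PET494 (-0.65, adjusted p = 0.068) and PET111 (-0.33, adjusted p = 0.21) did not pass. Their lowest arrest p belonged to PET494 (-1.47, adjusted p = 0.22), ATP22 (0.52, adjusted p = 0.59) and PET54 (0.57, adjusted p = 0.64). COX1 was the one organelle-encoded gene with enough reads, at 4.77 to 18.6 CPM in set1Δ and 1.09 to 20.5 CPM in WT, and it passed neither test (0.11, adjusted p = 0.76 for strain, and 0.80, adjusted p = 0.52 for arrest).

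Of 7 tested regulators, HAP1 passed in both comparisons, and it was the one gene of all lists but those of mating type called in the arrest step. It had 504 CPM at 0 min and 188 CPM asynchronous in set1Δ, and 354 CPM at 0 min and 124 CPM asynchronous in WT, a joint log2 change of 1.496 (SE 0.29, adjusted p = 0.0076), which was not called with no term for strain (adjusted p = 0.072). Its strain difference was 0.58 (SE 0.10, adjusted p = 0.00096), higher in set1Δ at 10 of 10 time points, and not called with no term for time (adjusted p = 0.076). PUF3 (strain -0.34, adjusted p = 0.095, and arrest -0.39, adjusted p = 0.70), SNF1 (strain 0.19, adjusted p = 0.30) and HAP2 (arrest -0.62, adjusted p = 0.53) did not pass. HAP4 and HAP5 were too low to be tested. QCR6, the one member with the Hap1 pattern upstream, had a strain difference of -0.21 (adjusted p = 0.20) and an arrest change of -0.08 (adjusted p = 0.94).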

How the data were processed

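Total RNA was profiled by PAT-seq, per the labels' protocols, and reads were processed with Bowtie2 2.2.5 against sacCer3, per the submitters' processing notes. The sources used here do not name a counting tool or its use of strand, so overlapping or antisense genes may share reads. The authors deposited read counts per feature, counts of the tailed reads among them, and a mean tail length per feature, whose unit was read as nt. The deposited counts were tested as they stood.

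Counts were tested with edgeR 4.0.16 (TMM, quasi-likelihood, R 4.3.3) on features with a mean of at least 10 reads, with Benjamini-Hochberg adjustment and a threshold of 0.05; tail lengths from at least 10 tailed reads, with 8 such values per strain, were tested with limma 3.58.1. Strain was tested with time point as a factor, arrest with strain, and time with a spline of 5 degrees of freedom. Strain differences are set1Δ minus WT, and arrest changes 0 min minus asynchronous. The scripts were tested on simulated data. DESeq2 1.42.0, other scalings, filters and left-out libraries were alternatives, one of them (without WT at 30 min) chosen after seeing the data. The members and lists were chosen with earlier results of these data known. All 32 genes are named; single-library values are given for the gene with the lowest adjusted p per complex in each comparison, and others named for a pattern were chosen after their values were seen. From each other list the 3 genes with the lowest p per comparison are named, with any further gene that was called. Depth ranged from 476565 to 2413354 reads per library, and the SEs combine counting error with the spread between libraries. Sequences were read from RefSeq assembly R64, the assembly of sacCer3.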

Additional observations from a re-analysis of the deposited data

Results flagged for a closer look

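Libraries were flagged where the highest or lowest of 4 to 10 values of a gene and strain stood far from the rest (Dixon's test), which chance alone gives in about 1 in 20 groups. Of 117 groups, 11 were flagged. The WT library of 120 min accounted for CPM values of 51.4 in ATP20, 904 in QCR6, 36.1 in QCR8 and 44.9 in CYT1, and for a tail of 44.6 nt in SDH1. That library also had the lowest poly(A) share, 32.2%, and the part of this share in the values was not tested.

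At 15 min after release, QCR9 stood out in set1Δ (17.99 CPM) and in WT (27.4 CPM), RIP1 in set1Δ (7.54 CPM) and COX4 in WT (13.7 CPM), all of them genes with few reads. COX8 was low in set1Δ at 30 min (13.1 CPM), the library with the fewest reads. The tail of QCR7 was short in WT at 105 min (15.4 nt).

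Time profiles differed between strains in ATP3 (adjusted p = 0.0082), COX6 (0.0086), QCR8 (0.017) and COX12 (0.018) by edgeR's test of the strain-by-time terms. These are 4 of 28 tested genes, near the 12.4% called over all features. None of these differences was called without the libraries of 105 and 120 min, or with tailed reads alone.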

How the results depend on the processing

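No estimate changed direction past a threshold. In the strain comparison, 0 genes of the group were higher in the fit as reported, but 2 with DESeq2, 1 with no filter (SDH2), 1 with tailed reads (ATP2) and 4 with the poly(A) share as a covariate (ATP2, ATP16, COX12 and COR1), and 0 to 1 without single time points. The higher counts with DESeq2, no filter and tailed reads were not set against all features called higher in those fits. The 2 lower genes became 5 without 105 and 120 min and 1 to 5 without single time points, counts not set against all features called lower in those fits. Over all features, 427 higher and 533 lower became 700 and 805 with the poly(A) share as a covariate, 656 higher without 105 and 120 min and 267 higher with no term for time; without single time points the higher ones numbered 329 to 680. In the arrest step 0 of the group were called in each setting, while the 196 of all features became 129 with DESeq2 size factors and 112 with no term for strain. The 2005 features that changed with time became 1193 with tailed reads, and the 10 of the group became 5 without 105 and 120 min and 3 (of 26 tested) with tailed reads. The group's count without 105 and 120 min was not set against that of all features. Without the WT library of 30 min, left out after the data were seen, 12 of the group changed with time and 6 differed in profile. These 2 counts were not set against those of all features in that setting. Profile differences, 628 over all features and 4 in the group, became 150 and 0 without 105 and 120 min and 113 and 0 with tailed reads. For tails, the 4 features called became 35 with at least 30 tailed reads, 1 with at least 5, 0 after centring, 1 without 105 and 120 min, 47 with weights and 0 to 7 without single time points. Of the group 0 were called, but 1 (COX6) with weights and 0 to 1 without single time points. The tail change on arrest went from 0 to 3 features with weights. The cause of these moves was not tested. Depth limits COX4, QCR9, RIP1 and SDH2 most. No paired analysis was possible beyond the time term because each strain has 1 library per time point.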
